A study of Mus musculus with 30 samples.

Results

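The comparison follows gene expression in the retinal pigment epithelium (RPE) of the mouse from the afternoon into the early night. It sets 5 mice taken at zeitgeber time (ZT) 14 h against 5 mice taken at ZT 9 h. By the usual convention ZT 0 h is lights-on and lights-off falls between these times, although the labels do not give the light schedule. The samples were chosen by their labelled time alone, 10 of the 30 libraries of a series that also holds 5 mice each at ZT 0, 2, 4 and 19 h. All were male wild-type C57BL/6 mice, 10 to 13 weeks old, untreated as far as the labels say, and each gave 1 eye (3 right and 2 left at ZT9, 1 right and 4 left at ZT14). The RPE was lifted off the choroid with forceps as clumps, so choroid, sclera and residual retina could come along. Of the 51904 genes in the table, 16741 had at least 1 FPKM (fragments scaled to transcript length and mapped depth) in at least 5 of the 30 libraries and were tested. A change is the difference of mean log2(FPKM + 1), ZT14 minus ZT9, which understates the change of low genes, and each SD given is taken over the 5 mice at that ZT.

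The RPE is a pigmented layer that takes up the tips shed by photoreceptor outer segments, recycles retinoid for vision and moves ions and fluid between the retina and the choroid. Its cells, like most others, hold a transcriptional clock. CLOCK and its partner BMAL1, encoded by Arntl, bind E-boxes and switch on the Per, Cry, Nr1d and PAR bZIP genes. PER and CRY proteins then inhibit that pair, while the REV-ERB proteins encoded by Nr1d1 and Nr1d2 repress Arntl and compete with the activating ROR proteins. In tissues of nocturnal rodents the Nr1d1 and Dbp transcripts usually peak in the day and those of Per2 near dusk.

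Upstream sequence is given for 3 clock genes that had lower mean levels at ZT14 than at ZT9, to show what E-box letters lie next to their starts. The letters are the 250 bases before the start, 5′ to 3′, from RefSeq on GRCm38.p6, with CACGTG (the E-box) or its variant CACGTT, read on either strand, in capitals.
Ciart (chr3:95882229-95882478, minus strand): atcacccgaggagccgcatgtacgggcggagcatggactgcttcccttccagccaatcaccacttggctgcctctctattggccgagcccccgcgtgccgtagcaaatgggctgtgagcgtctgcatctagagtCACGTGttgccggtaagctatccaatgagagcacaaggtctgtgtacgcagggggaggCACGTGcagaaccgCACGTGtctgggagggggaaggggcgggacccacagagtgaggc
Nr1d1 (chr11:98775378-98775627, minus strand): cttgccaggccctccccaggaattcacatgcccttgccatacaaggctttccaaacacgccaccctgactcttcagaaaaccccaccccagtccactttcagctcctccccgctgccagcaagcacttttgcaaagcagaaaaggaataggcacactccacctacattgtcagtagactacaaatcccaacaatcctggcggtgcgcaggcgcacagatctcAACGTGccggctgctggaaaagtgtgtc
Dbp (chr7:45704997-45705246, plus strand): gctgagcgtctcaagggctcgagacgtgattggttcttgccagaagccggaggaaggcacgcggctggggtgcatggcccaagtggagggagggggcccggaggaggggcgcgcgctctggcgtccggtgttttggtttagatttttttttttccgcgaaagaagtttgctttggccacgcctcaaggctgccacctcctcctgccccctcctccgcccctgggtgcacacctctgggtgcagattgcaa
The Ciart stretch holds 3 copies of CACGTG, the Nr1d1 stretch holds 1 copy of the variant on the opposite strand, and the Dbp stretch holds neither. GENCODE M21, used for the gene positions given elsewhere, places the starts of Dbp (45705088) and Ciart (95882251) inside the stretches printed. Each search covered both strands of 300 bases, from 250 before to 50 after the start. CACGTG occurred in 7.15% and CACGTT in 4.68% of all 32851 such windows in the table. Of 24 core clock genes searched, 21 had a window. CACGTG stood in at least 1 window of 5 of these (23.8%: Per1, Cry1, Tef, Bhlhe41 and Ciart), against 8.09% of all 27025 genes in the table. The half-site AGGTCA, bound by ROR and REV-ERB proteins, was in 5 of the 21 (23.8%, against 18.1% of all genes). Per2 was not among the windows, and elements farther from the start or inside the gene were not searched. A match describes letters, not binding.

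One library stood apart. ZT14 replicate 3 had 12754 genes above 0 FPKM, against 16968 to 18217 in the other 9 libraries, and listed 557 genes at 0 whose median elsewhere was at least 10 FPKM, against 4 to 23. Its Pearson correlation with the other 9 across genes was 0.742 to 0.787. The remaining ZT14 libraries correlated with each other at 0.862 to 0.888, the ZT9 libraries at 0.847 to 0.902, and ZT9 with ZT14 libraries at 0.847 to 0.909, so a library of the same time was no closer than one of the other time. Its estimated depth of 21.0 M reads (M: mega) was not low, beside 15 to 20.8 M in the other ZT14 libraries and 15.8 to 23.0 M at ZT9. It was also the only right eye at ZT14. Changes without it stand beside many of the values given, and a value of 0 in it is described as listed at 0.

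No gene passed an adjusted p of 0.05 for ZT14 against ZT9 in limma with Benjamini-Hochberg adjustment (0 of 16741, 0%). The nearest was Nr1d1, which missed the threshold at 0.0596. At an unadjusted p under 0.05 there were 1128 genes (6.74%), of which 464 were higher (2.77%) and 664 lower (3.97%) at ZT14. Without ZT14 replicate 3 there were 659 such genes (3.94%), 308 higher (1.84%) and 351 lower (2.1%), and again none passed after adjustment. The surplus of lower genes depended on the scaling. After quantile normalization 501 were higher and 464 lower. The surplus stayed with median ratio rescaling (411 higher and 711 lower) and with equal FPKM totals (431 and 635). The median change of all tested genes was -0.05 (-0.01 without ZT14 replicate 3), and their median SE was 0.39. The values of the 5 mice at one time all lay above those of the 5 at the other in 91 genes (0.544%), 39 higher at ZT14 (0.233%) and 52 lower (0.311%). For a single gene that separation gives the smallest two-sided p an exact permutation test of 5 against 5 can reach, 0.00794. That is also the rate at which random labels would part a gene, and the observed share of 0.544% was not above it. Separation is therefore used here only to describe values. What follows describes sizes and single mice, and a named gene missed the adjusted threshold unless stated otherwise. The labels say that the mice are separate animals, so the p-values measure the spread between mice.

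**Figure D1:**
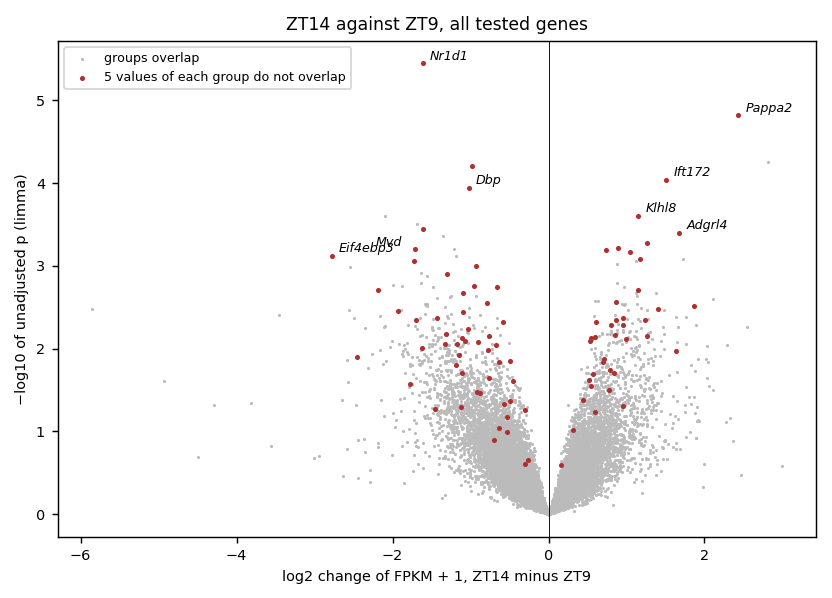
Change of each of the 16741 tested genes (x axis, log2 of FPKM + 1, ZT14 minus ZT9) against the −log10 of its unadjusted limma p (y axis). Red points are the 91 genes whose 5 ZT14 and 5 ZT9 values do not overlap, and Nr1d1, at -1.61, has the smallest p.

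Of the REV-ERB pair, Nr1d1 separated between the times and Nr1d2 did not. Nr1d1 (ENSMUSG00000020889, GRCm38 chr11:98767932-98775333, minus strand) encodes REV-ERB alpha. At ZT9 it stood at 66.8, 67.9, 78.7, 62.2 and 81.4 FPKM in replicates 1 to 5, and at ZT14 at 29.3, 22.5, 21.3, 33.7 and 12.2 FPKM. The 2 sets lie far apart, with the highest ZT14 mouse at 33.7 and the lowest ZT9 mouse at 62.2 FPKM. The change was -1.61 ± 0.28 (SE), to 0.327 of the ZT9 level on the FPKM + 1 scale, with an unadjusted limma p of 3.56e-06, the smallest of all tested genes. Its adjusted p of 0.0596 ranged from 0.0341 to 0.663 over the 24 alternative settings and was past the threshold in 5 of them. Without ZT14 replicate 3 the change was -1.59, with a limma adjusted p of 0.214. The 10 mice of ZT 19 and 4 h are in neither group, but both comparisons use the spread estimated over all 30 mice. There Nr1d1 fell by 2.16 on the log2 scale (± 0.28 SE) from ZT4 to ZT19 and was the only gene that passed (limma adjusted p = 3.59e-04, 1 of 16741, 0.00597%). Fitted on those 10 mice alone, with their own spread, it did not pass (limma adjusted p = 0.614), nor did any other gene (0%). Over the day its mean was 20.3 ± 5.39 FPKM at ZT0, 57.9 ± 7.9 at ZT4, 71.4 ± 8.23 at ZT9, 23.8 ± 8.20 at ZT14 and 14.1 ± 10.5 at ZT19 (SD, n = 5 each). The ZT14 mean was thus close to that at ZT0. Nr1d1 overlaps Thra on the other strand, and whether counting used strand is not given in the sources used here. Thra, a thyroid hormone receptor gene, had a change of -0.23 ± 0.17, and of -0.33 without ZT14 replicate 3 (limma adjusted p = 0.794 with it). Nr1d2, which encodes REV-ERB beta, was at 49.7 to 61.3 FPKM at ZT9 and 37.4 to 70.5 at ZT14, wholly overlapping, with a change of -0.18 ± 0.20 (-0.14 without ZT14 replicate 3). That the pair differ in their change was not tested.

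Of the ROR genes, which encode activators that share binding sites with REV-ERB, Rora was at 13.8 to 19.8 FPKM at ZT9 and 7.21 to 25.4 at ZT14 with a change of -0.24 ± 0.30 (-0.07 without ZT14 replicate 3). Rorb had a change of +0.03 ± 0.52 (-0.02 without it). Both overlapped between the times.

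The PAR bZIP genes encode output activators that bind D-boxes. Dbp (ENSMUSG00000059824, chr7:45705088-45710203, plus strand) was at 273, 233, 253, 257 and 210 FPKM at ZT9. At ZT14 it was at 118, 129, 81.6, 184 and 107 FPKM. Every ZT14 mouse was below every ZT9 mouse, and ZT14 replicate 4 came nearest. The change of -1.02 ± 0.23 took Dbp to 0.492 of its ZT9 level (limma adjusted p = 0.317), and without ZT14 replicate 3 it was -0.89. In the other 10 mice ZT19 minus ZT4 was -0.95 ± 0.23 (limma adjusted p = 0.578). Dbp overlaps Sphk2, a sphingosine kinase gene on the other strand, which had a change of +0.60 ± 0.39 (+0.17 without ZT14 replicate 3). The other members of the family did not separate. Tef was at 124 to 243 FPKM at ZT9 and 87.5 to 365 at ZT14, and its change of +0.01 turned negative under several settings (-0.27 without ZT14 replicate 3). Hlf had a change of -0.54 ± 0.50 (-0.51 without ZT14 replicate 3). Nfil3, the repressor that competes for D-boxes, had a change of -0.13 ± 0.42, and of +0.37 without ZT14 replicate 3, in which it is listed at 0.

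Of the Period genes, whose proteins form the inhibitory arm, Per2 and Per1 spread widely between mice of one time and Per3 did not. Per2 was at 52.6, 8.89, 11.6, 7.31 and 9.55 FPKM at ZT9 and at 77.9, 117, 14.7, 32.8 and 9.11 FPKM at ZT14. The first 2 mice of ZT14 stood above all of ZT9, while ZT14 replicate 5 lay among the lower ZT9 mice and ZT9 replicate 1 stood far above its own group. The change was +1.28 ± 0.54 (limma adjusted p = 0.739). It was +1.57 without ZT14 replicate 3, and over all 10 mice left out in turn it ran from +0.84 (without ZT14 replicate 2) to +1.76 (without ZT9 replicate 1). Both groups exceeded the 20 mice of the other 4 times, which reached at most 5.59 FPKM. Per1 was at 13.0 to 42.4 FPKM at ZT9 and 7.33 to 34.6 at ZT14 with a change of -0.33 ± 0.38 (-0.08 without ZT14 replicate 3). Per3 was at 15.5, 17.2, 23.5, 20.5 and 19.1 FPKM at ZT9 and 18.8, 17.7, 17.7, 17.1 and 15.6 at ZT14. These 10 mice also lay above the highest of the other 20, at 13.9 FPKM. Its change was -0.12 ± 0.30 (-0.13 without ZT14 replicate 3). Per3 overlaps Camta1 on the same strand. Cry1 had a change of +0.12 ± 0.84 (+0.19 without ZT14 replicate 3), with 1 high mouse in each group at 80.3 and 69.7 FPKM. Cry2 had a change of -0.54 ± 0.29, and of -0.68 without ZT14 replicate 3.

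Among the activators, Arntl was low at both times. It was at 1.47, 4.05, 3.57, 1.37 and 3.28 FPKM at ZT9. At ZT14 it was at 5.22, 0.905, 1.73 and 3.23 FPKM in replicates 1, 2, 4 and 5, and listed at 0 in replicate 3. The change of -0.42 ± 0.35 was -0.06 without that library. All 10 mice lay below the lowest of the other 20 mice, at 7.83 FPKM. Clock was at 10.4 to 21.0 FPKM at ZT9 and 11.8 to 19.8 at ZT14 with a change of -0.09 ± 0.25 (-0.05 without ZT14 replicate 3). Npas2, a relative of Clock, had a change of -0.57 ± 0.49 (-0.38 without ZT14 replicate 3). Arntl2 had a change of -1.75 ± 0.75 (limma adjusted p = 0.740), with ZT9 replicate 4 at 61.3 FPKM and the other 9 mice at 0 to 8.42 FPKM. Without ZT9 replicate 4 the change was -0.94, and without ZT14 replicate 3 it was -1.51.

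Other repressors and regulators did not separate. Ciart, which encodes an inhibitor of CLOCK and BMAL1 and has the 3 E-boxes shown above, was at 14.3, 24.9, 9.03, 8.77 and 17.1 FPKM at ZT9. It was at 7.28, 7.10, 0.932, 10.3 and 11.8 FPKM at ZT14. The groups overlap, with ZT14 replicate 3 far below its group. The change of -1.05 ± 0.68 was -0.57 without that library, and ZT19 against ZT4 gave -1.54 ± 0.68. Bhlhe40 and Bhlhe41, the DEC repressors, had a change of -0.23 ± 0.21 and -0.22 ± 0.23 (-0.10 and -0.33 without ZT14 replicate 3). Timeless had a change of -1.24 ± 0.58, and of -0.78 without ZT14 replicate 3, where it is listed at 0. Csnk1d, a kinase of PER proteins, had a change of +0.44 ± 0.29 with ZT14 replicate 3 at 233 FPKM, and of +0.05 without it.

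Of the 26 core clock genes, 2 were higher, Per2 among them, and 4 lower (Nr1d1, Dbp, Arntl2 and Timeless) at an unadjusted limma p under 0.05, beside 2.77% and 3.97% of all genes. Without ZT14 replicate 3 the counts were 2 higher and 3 lower. The list's median change was -0.23, beside -0.05 for all genes, and -0.15 without that library. Of its changes 20 of 26 were negative, beside 9208 of 16741 over all tested genes. In the mice of ZT19 and ZT4, 13 of 24 core clock genes looked up had the same sign, and 4 of these had an unadjusted limma p under 0.05 there: Npas2, Nr1d1, Dbp and Ciart. Fitted on those 10 mice alone, 3 of them were past it (Npas2, Nr1d1 and Dbp), beside 5.33% of all genes. Over all genes 4.95% were past that threshold for ZT19 against ZT4, 2.51% higher and 2.44% lower at ZT19.

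**Figure D2:**
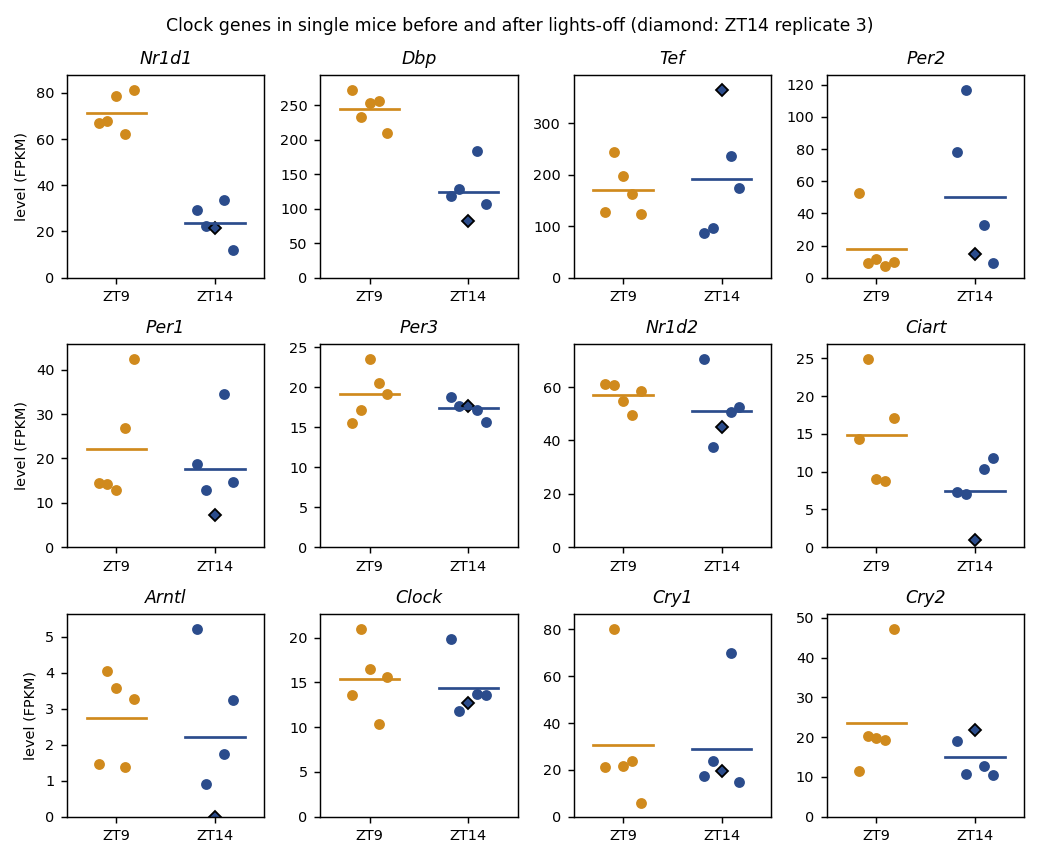
Level (y axis, FPKM, from 0) of 12 clock genes in each mouse at ZT9 (orange) and ZT14 (blue), with the group mean as a bar; the diamond is ZT14 replicate 3. Nr1d1 and Dbp do not overlap between the times, while Per2 runs from 7.31 to 117 FPKM over the 10 mice.

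Outside the clock, the 10 genes of smallest p among those whose ZT14 mice were all higher were led by Pappa2 (ENSMUSG00000073530, chr1:158711727-158980490), a secreted protease that cleaves insulin-like growth factor binding proteins. It was at 2.54, 2.95, 2.82, 4.40 and 7.00 FPKM at ZT9 and at 8.94, 16.5, 72.1, 24.4 and 32.1 FPKM at ZT14. ZT14 replicate 3 was the highest mouse, and the remaining ZT14 mice were still above all ZT9 mice. The change was +2.44 ± 0.47 (limma adjusted p = 0.126), or +2.06 without that library. In 3 of the 20 other mice Pappa2 was at or above the lowest ZT14 mouse, and ZT19 against ZT4 gave +0.31 ± 0.47. Ift172 (ENSMUSG00000038564, chr5:31253277-31291116), a subunit of the transport machinery of cilia, was at 30.0, 12.4, 20.2, 19.4 and 23.2 FPKM at ZT9 and at 71.7, 56.2, 67.5, 38.9 and 70.9 at ZT14. All ZT14 mice were higher, replicate 4 least so. The change was +1.51 ± 0.33 (limma adjusted p = 0.307) and +1.47 without ZT14 replicate 3, and 2 of the 20 other mice reached the lowest ZT14 level. Ift172's mean was between 21.0 and 32.5 FPKM at the other 5 times, against 61.0 ± 13.8 at ZT14.

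The other 8 had lower folds or lower levels. Adgrl4, an adhesion receptor of endothelium, was at 3.19 to 10.5 FPKM at ZT9 and 13.7 to 62.3 at ZT14 (+1.68 ± 0.42, or +1.36 without ZT14 replicate 3, its highest mouse). Xpnpep3, a mitochondrial aminopeptidase gene, was at 2.57 to 7.63 and 9.15 to 13.1 FPKM (+1.26 ± 0.32), and 1 of the 20 other mice reached the ZT14 range. Klhl8, which encodes a Kelch-like adaptor of ubiquitin ligases, was at 2.67 to 8.05 and 8.51 to 18.4 FPKM (+1.15 ± 0.28, or +1.04 without ZT14 replicate 3). Prim2, the large subunit of DNA primase, had a change of +1.15 ± 0.34, and Synpo, which encodes the actin-binding synaptopodin, of +0.89 ± 0.23 (+0.71 without ZT14 replicate 3). Cyp4f13, one of a cluster of similar cytochrome P450 genes whose reads can be shared, had a change of +1.05 ± 0.27, and 14 of the 20 other mice were at or above its lowest ZT14 mouse. The same count was 10 for Synpo, 9 for Klhl8, 8 for Prim2 and 6 for Adgrl4.

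Fmo1 and Dnaja1 were the 2 of these 10 genes that were also higher at ZT19 than at ZT4 at an unadjusted limma p under 0.05. Fmo1, a flavin-containing monooxygenase gene, was at 60.5, 21.6, 56.4, 31.6 and 56.5 FPKM at ZT9 and at 77.9, 90.0, 62.4, 159 and 118 FPKM at ZT14. The groups are parted by a narrow gap, 60.5 against 62.4 FPKM. Its change was +1.17 ± 0.31 (+1.32 without ZT14 replicate 3), beside +1.13 ± 0.31 in the ZT19 and ZT4 mice. Dnaja1, an HSP40 co-chaperone gene, was at 23.0, 26.2, 23.2, 23.0 and 21.8 FPKM at ZT9 and at 32.9, 49.8, 55.3, 31.5 and 34.5 at ZT14. The ZT9 mice lie close together and the ZT14 mice are all above them. Its change was +0.74 ± 0.19 (+0.62 without ZT14 replicate 3), beside +0.54 ± 0.19 at the other times. Dnaja1 overlaps Smu1 on the other strand, which had a change of +0.35 ± 0.23 (+0.27 without ZT14 replicate 3).

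Among the genes whose ZT14 mice were all lower, 7 beside Nr1d1 and Dbp are described. Mvd, the mevalonate decarboxylase of cholesterol synthesis, was at 14.2, 16.5, 13.3, 17.3 and 9.76 FPKM at ZT9 and at 3.30, 9.26, 0.121, 5.21 and 5.44 at ZT14. The 2 groups nearly touch at 9.76 and 9.26 FPKM. The change of -1.71 ± 0.45 was -1.21 without ZT14 replicate 3. Eif4ebp3, a translation repressor gene, was at 4.02 to 15.3 FPKM at ZT9, at 2.80 FPKM in ZT14 replicate 1 and listed at 0 in the other 4 ZT14 mice. Tmem209 had a change of -0.96 ± 0.28, from 20.2 to 30.3 FPKM at ZT9 to 8.79 to 15.7 at ZT14. The remaining 4 genes were low at both times. Dnaic2, an axonemal dynein gene, had at most 11.9 FPKM, the protocadherin gene Dchs1 at most 6.55 and the perinatal myosin gene Myh8 at most 5.11. Raet1e reached 3.95 FPKM, and it overlaps several close relatives of its family, so its reads cannot be assigned with certainty. Of the 20 other mice, 13 were at or below the highest ZT14 mouse in each of Raet1e, Dchs1 and Myh8. The same count was 9 for Tmem209, 7 for Eif4ebp3, 4 for Mvd and 3 for Dnaic2.

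Across these 19 genes, both clock genes included, ZT19 minus ZT4 had the same sign in 17, and 4 had an unadjusted limma p under 0.05 there (Nr1d1, Dbp, Dnaja1 and Fmo1). None had one with the opposite sign. These 4 stand beside 4.95% of all genes in either direction. For the count of signs no share of all genes is given here. These genes were chosen for their separation of ZT14 from ZT9, and the spread behind that choice was estimated over all 30 mice. When ZT19 and ZT4 were fitted on their 10 mice alone, the same 4 genes had an unadjusted limma p under 0.05, beside 5.33% of all genes, and none passed after adjustment. In 5 of the 9 lower genes ZT14 replicate 3 was listed at 0 or had at most 0.121 FPKM.

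**Figure D3:**
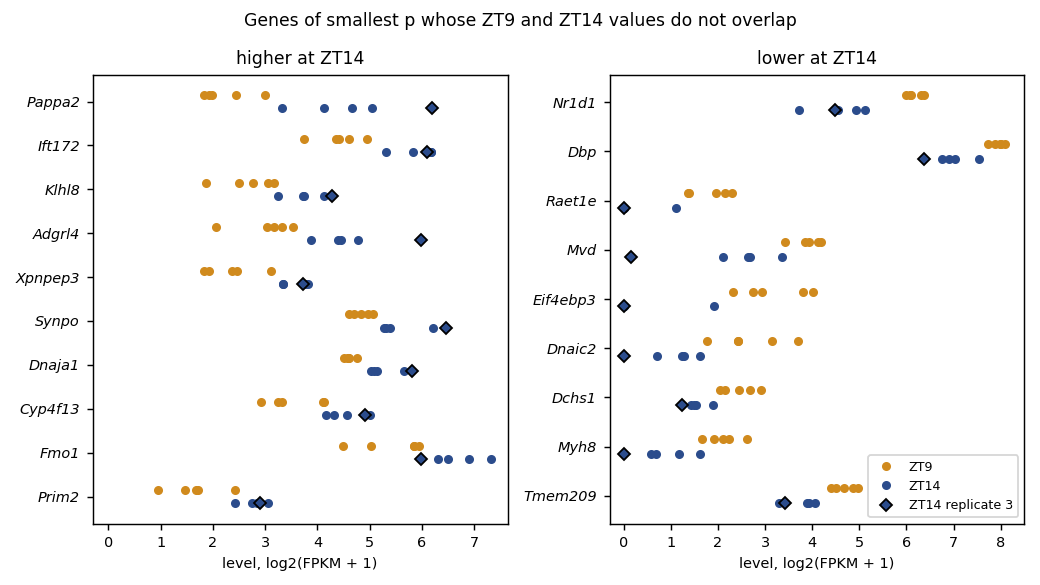
Level (x axis, log2 of FPKM + 1) in each mouse of 19 genes of small p whose ZT9 (orange) and ZT14 (blue) values do not overlap, higher at ZT14 on the left and lower on the right. The diamond, ZT14 replicate 3, is the highest ZT14 mouse for Pappa2 and Adgrl4 and the lowest for Dbp and Mvd.

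The hormone and stress programmes are described by their counts, beside 2.77% higher and 3.97% lower of all genes at the same unadjusted threshold. Of 21 glucocorticoid-responsive genes, Per1 among them, 3 were higher and none lower at an unadjusted limma p under 0.05, the same counts as without ZT14 replicate 3, and the median change was +0.14 with and without ZT14 replicate 3. The 3 were Fkbp5, a co-chaperone of the glucocorticoid receptor, Tsc22d3, which encodes GILZ, and Zbtb16. Fkbp5 was at 24.2, 11.2, 12.2, 17.2 and 21.7 FPKM at ZT9 and at 42.8, 45.9, 23.8, 34.6 and 33.1 FPKM at ZT14. It overlapped only through ZT14 replicate 3, at 23.8 against 24.2 FPKM, with a change of +1.04 ± 0.36 (+1.18 without that library, limma adjusted p = 0.704 with it). Its mean was 36.0 ± 8.72 FPKM at ZT14 and 13.2 to 19.6 at the other 5 times. Tsc22d3 had a change of +0.66 ± 0.25 (+0.67 without ZT14 replicate 3). Zbtb16 had a change of +0.88 ± 0.34 (+0.65 without it).

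Of 20 endoplasmic reticulum chaperone and stress genes 3 were higher and none lower (Sdf2l1, Creld2 and Hspa5), beside 2.77% and 3.97% of all genes, with a median of +0.10. Without ZT14 replicate 3 the counts were also 3 and 0, and the median was +0.13. Hspa5, the chaperone BiP, was at 196 ± 34.5 FPKM at ZT9 and 232 ± 26.8 at ZT14 (SD, n = 5 each). Of 19 heat shock genes 1 was higher (Dnaja1), median +0.20, of 15 antioxidant genes 1 (Hmox1, haem oxygenase, +0.77 ± 0.32, or +1.06 without ZT14 replicate 3), median +0.17, and of 19 immediate early genes 1 (Nr4a3, +1.09 ± 0.38), median +0.06. Without ZT14 replicate 3 these counts were 2, 1 and 2, and the medians +0.11, +0.09 and +0.16. No member of the 16 hypoxia-responsive genes or of the 3 cold-inducible genes was beyond that threshold, and all 3 of the latter had negative changes.

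The lists of the RPE's own work are read beside the same 2.77% higher and 3.97% lower of all genes. In the visual cycle list 0 of 12 genes were beyond the unadjusted threshold, median +0.05. Rpe65, the isomerase of that cycle, was at 1372, 800, 1013, 914 and 796 FPKM at ZT9 and at 1100, 1004, 1118, 1069 and 1346 at ZT14. The groups overlap, and the change was +0.23 ± 0.29. None of 16 melanogenesis genes was beyond the threshold (median +0.02). Of 22 phagocytosis genes 2 were higher, the engulfment adaptor Elmo1 (+1.03 ± 0.41) and the receptor kinase gene Tyro3 (+0.48 ± 0.21), with a median of +0.09, and without ZT14 replicate 3 there was 1, median +0.04. Of 26 lysosome and autophagy genes 2 were higher, median +0.11, and 3 without ZT14 replicate 3. The 2 were Tfeb, the master regulator of lysosomal genes, and Sqstm1, the autophagy receptor p62. Sqstm1 was at 197 to 400 FPKM at ZT9 and at 364 to 506 at ZT14, with a change of +0.60 ± 0.18 (+0.51 without ZT14 replicate 3). Of 22 transport genes 1 was lower, the bicarbonate cotransporter gene Slc4a4. It was at 28.6 to 50.7 FPKM at ZT9 and 8.51 to 35.0 at ZT14, and its change of -0.85 ± 0.35 was -0.52 without ZT14 replicate 3, its lowest mouse. Without that library no transport gene was beyond the threshold. Among 16 secreted factors Angptl7 was higher (+0.93 ± 0.37, and +1.48 ± 0.37 for ZT19 against ZT4). Leo1, of the PAF1 complex, was the only one of 15 clock-controlled output genes beyond the threshold, at +0.50 ± 0.24.

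Among the metabolic and cell cycle lists, cholesterol synthesis and mitosis had mostly negative changes. Of 22 cholesterol synthesis genes 2 were lower, Mvd among them, none higher, and 16 had negative changes, beside 3.97% lower and 2.77% higher of all genes. Of all 16741 tested genes 9208 had negative changes. The median of -0.28 was -0.14 without ZT14 replicate 3, and the count 1 lower. Summed over the list, libraries ran from 720 to 1422 FPKM at ZT9 and from 749 to 1218 at ZT14, so the groups overlapped. Of 18 lipid oxidation genes 1 was higher (Plin2, which coats lipid droplets, +0.70 ± 0.28, or +0.48 without ZT14 replicate 3), and of 16 glycolysis genes 1 (Gpi1, +0.40 ± 0.19, or +0.21 without that library). Without that library neither Plin2 nor Gpi1 was beyond the threshold. The counts were then 1 higher and 1 lower for lipid oxidation and 0 for glycolysis. Their medians of +0.06 and +0.11 became -0.06 and -0.015. Of 28 mitosis genes 3 were lower (Pbk, Cenpf and Plk1), none higher, beside 3.97% and 2.77% of all genes, and 26 had negative changes. Without ZT14 replicate 3 the count was 1 lower, and the median of -0.48 was -0.28. The summed level was not lower at ZT14. It ran from 61.1 to 172 FPKM at ZT9 and from 98.2 to 202 at ZT14, the last in ZT14 replicate 3. That library also had the lowest mean log2(FPKM + 1) of the list at ZT14, 0.81, against 1.36 to 2.48 at ZT9. Pbk, a mitotic kinase gene, was at 2.41 to 6.72 FPKM at ZT9 and 0 to 4.93 at ZT14, with a change of -1.33 ± 0.51 (-1.06 without ZT14 replicate 3). ZT19 against ZT4 gave -2.04 ± 0.51 for Pbk, with all 5 ZT19 mice listed at 0. None of 15 D cyclin and G1 genes was beyond the threshold (median -0.11).

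Transcripts of other eye tissues varied widely between mice of one time. Summed over 18 surface epithelium markers, of cornea and conjunctiva, libraries ran from 3132 to 22619 FPKM at ZT9 and from 4192 (ZT14 replicate 3) to 17450 FPKM at ZT14. These markers had 17 of 18 negative changes, beside 9208 of 16741 for all genes. Their median was -0.33, and -0.07 without ZT14 replicate 3, the same sign as the medians of the mitosis and cholesterol lists. None of the 18 was beyond the unadjusted threshold. Their part in those lists was not tested. In a bulk sample fewer cells of a type and less RNA per cell cannot be told apart. The 14 rod markers summed to 81.7 to 7392 FPKM at ZT9 and 278 to 3922 at ZT14 (0 of 14 beyond the threshold). Myelin markers ran from 903 to 7242 and from 895 to 11900 FPKM, with a median change of +0.87 (+0.77 without ZT14 replicate 3) and 0 of 12 beyond the threshold. The 13 skeletal muscle markers ran from 3771 to 9557 and from 4009 to 18744 FPKM, the last in ZT14 replicate 3, and their median of +0.28 was -0.08 without it.

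Stroma, melanocyte and Schwann cell, immune and endothelial markers, of cell types of the choroid, had mostly positive changes, and mural cell markers did not. None was lower at the unadjusted threshold, beside 3.97% of all genes. The counts of higher markers stand beside 2.77% of all genes, and 7506 of all 16741 changes were positive. Of 14 stroma markers 3 were higher (Pdgfra, Mgp and Fn1), with a median of +0.29, and without ZT14 replicate 3 there were 2, median +0.22. Of 10 melanocyte and Schwann cell markers 2 were higher (Sox10 and Cdh19), median +0.34, and without that library 0, median +0.36. Of 14 immune markers 3 were higher (the complement genes C1qa and C1qc, and Cd68), median +0.20, and without that library 2, median +0.18. Of 9 mural cell markers 0 were higher and 5 had negative changes, median -0.02, and without that library 1 was lower, median +0.13. Of 12 endothelial markers 1 was higher (Emcn), median +0.16, and without that library 0, median +0.06, beside the endothelial receptor gene Adgrl4 above. Stroma markers summed to 1484 to 3453 FPKM at ZT9 and 1844 to 3498 at ZT14, and the endothelial markers had a mean log2(FPKM + 1) of 3.96 to 5.19 and 4.63 to 4.95, so the groups overlapped. The part of these cells in the higher genes was not tested. The 10 RPE markers summed to 8215 to 14835 FPKM at ZT9 and 8938 to 13350 at ZT14, none beyond the threshold. Best1, the bestrophin gene that often serves to define RPE, was at 0 to 3.93 FPKM over the 10 mice.

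**Figure D4:**
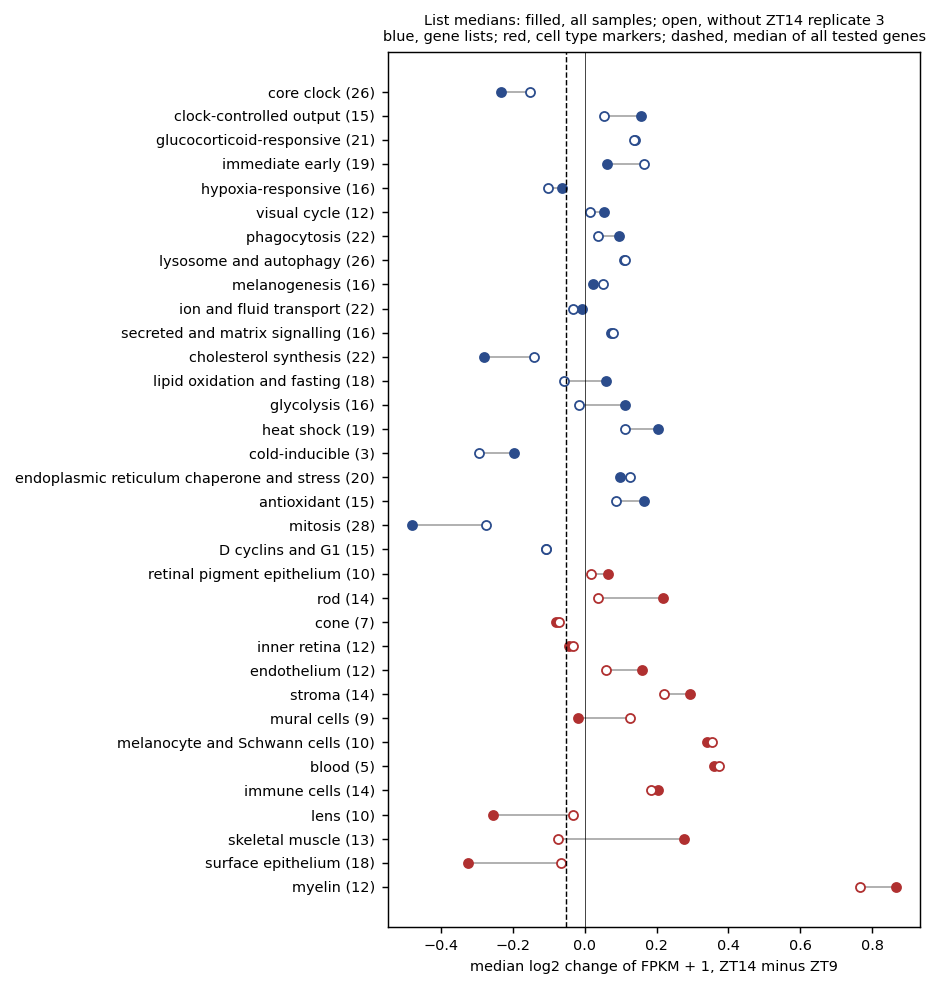
Median change of each gene list (x axis, log2 of FPKM + 1, ZT14 minus ZT9; number of tested genes in brackets), with all samples (filled) and without ZT14 replicate 3 (open); blue marks gene programmes, red markers of cell types, and the dashed line the median of all genes, -0.05. The medians of skeletal muscle, surface epithelium, lens and mitosis move most toward 0 or past it when that library is left out.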

How the data were processed

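RNA of 30 RPE samples had been sequenced as single reads. Per the submitters' processing notes, the tools were STAR, Cufflinks and DESeq2 with the build mm10, with no versions or roles. The deposited values are FPKM that the authors computed per gene, written with decimal commas (unit from the name of the table). Raw counts were not analysed here. Low FPKM values step by 1 read, which gave an estimated depth of 12.5 to 23.0 M reads per sample.

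Genes with at least 1 FPKM in at least 5 samples were kept, and log2(FPKM + 1) was fitted with limma 3.58.1 in R 4.3.3 (variance trend, 1 mean per time point over 30 samples, 24 residual degrees of freedom, two-sided). p-values were adjusted over all genes, threshold 0.05. The fit was tested on simulated data, but the share of planted changes it recovers is not given here. That no gene passed the adjusted threshold does not show that no gene changed. Positions are from GENCODE M21, which matched 51711 of 51904 gene IDs. Gene lists (20 programmes, 14 marker sets) and members were chosen with earlier results of these data known. Named with values were all core clock genes, the 10 genes of smallest p in each direction whose groups do not overlap, and each list's member of smallest p per direction; predicted genes were not named, and a few genes are not reported here. Other members past the unadjusted threshold, and Thra, Sphk2, Smu1 and Camta1, were named after their values were seen. Alternatives are given in the closing section.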

Additional observations from a re-analysis of the deposited data

Results flagged for a closer look

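In each group of 5 mice, the highest or lowest value of a named gene was compared with its neighbours on the log2(FPKM + 1) scale (Dixon's ratio of the gap to the range). The number of genes above 0 FPKM was examined in the same way. Of 202 groups, 10 were flagged, 9 of them in named genes, which is about the 1 in 20 that chance would give. ZT14 held 8 of them and ZT9 held 2, and 3 were values of ZT14 replicate 3.

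ZT14 replicate 3 was lowest in genes above 0 FPKM (12754) and in Ciart (0.932 FPKM), and highest in Sqstm1 (506 FPKM). ZT14 replicate 1 was highest in Clock (19.8 FPKM), in the rod gene Rom1 (198 FPKM) and in Eif4ebp3 (2.80 FPKM, with the other 4 listed at 0). ZT14 replicate 5 was highest in Raet1e at 1.15 FPKM, with the other 4 listed at 0. ZT14 replicate 4 was lowest in the cold-inducible gene Cirbp (56.3 FPKM). At ZT9, replicate 1 was highest in Per2 (52.6 FPKM) and replicate 2 in the glycolysis gene Pgam1 (24.9 FPKM).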

How the results depend on the processing

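The comparison was recomputed under 24 alternatives, 14 of method and 10 that leave out 1 mouse; equal FPKM totals was chosen after seeing the data. No paired analysis was possible because every animal number occurs once. The count of genes past the adjusted threshold stayed at 0 or 1 in each direction. For genes higher at ZT14 it was 1 (Pappa2) with eye as a term and 0 to 1 when a mouse was left out (Pappa2 without ZT14 replicate 1, adjusted p = 0.0373). For lower genes it was 1 (Nr1d1) with a filter at 5 FPKM, with quantile normalization and with terms for rod and stroma scores, 1 (Slc12a1) with no filter, and 0 to 1 when a mouse was left out (Nr1d1 without ZT14 replicate 1, 0.0378, or replicate 4, 0.0355). For ZT19 against ZT4, 1 higher gene (Angptl7) passed with rod and stroma scores, and 0 lower genes passed when only those 10 samples were fitted. At an unadjusted p under 0.05, ZT14 against ZT9 gave 634 to 1862 genes, the lowest with only the 10 samples and the highest with eye as a term; with array weights 689. The causes were not tested.

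Of 2391 values of 100 named genes, 46 changed sign, in 12 genes whose reported changes lay between -0.38 (Rbp4) and +0.16 (Psca). Clock was 0.195 with 5 marker scores and 0.073 with rod and stroma scores. Rorb was -0.017 with animal number runs and -0.030 with rod and stroma scores, Per3 0.047 with 5 marker scores and Cry1 -0.061 with runs. Tef was -0.155 with runs, -0.086 with array weights, -0.010 with equal totals, -0.018 with median ratio rescaling, -0.052 with quantile normalization and -0.165 with rod and stroma scores. Nfil3 was 0.298 with array weights and 0.077 with quantile normalization, which put Best1 at 0.077. Lim2 was -0.108 with 5 marker scores, -0.008 with runs, -0.245 with a pseudocount of 0.1 and -0.316 with rod and stroma scores. Leaving out 1 mouse gave ranges across 0 for Best1 (-0.381 to 0.202), Clock (-0.212 to 0.024), Cry1 (-0.324 to 0.568), Lim2 (-0.244 to 0.690), Nfil3 (-0.423 to 0.369), Pgam1 (-0.351 to 0.099), Psca (-0.428 to 0.494), Rbp4 (-0.801 to 0.044), Rom1 (-0.466 to 0.163), Rorb (-0.169 to 0.314) and Tef (-0.271 to 0.242). Depth limits genes near 1 FPKM, and a listed 0 can be a failed estimate.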
